A study of Mus musculus with 6 samples.

Results

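The transcripts described here are those of 50 genes that repair DNA double-strand breaks or signal their presence, covering end joining, homologous recombination, the Fanconi pathway, poly(ADP-ribose) polymerases and checkpoint kinases. They were chosen by name, and 49 of the 50 had an array row that names that gene alone, among 19938 genes with such a row. Xrcc2, a recombination gene, was not analysed here. Whole brains, from olfactory bulb to brain stem, were taken from mice at embryonic day 16.5, and their RNA was read on Affymetrix Mouse Gene 1.0 ST arrays. The 6 arrays were 3 wild-type brains and 3 Tdp2Δ1-3 brains. The labels give only the allele name, which is read here from general knowledge as a Tdp2 allele lacking exons 1 to 3. The sources used here do not give strain, sex or litter, and no treatment was applied to either genotype. The series text calls the brains independent pairs, and the sample titles call them biological replicates.

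TDP2 removes topoisomerase II peptide that stays bound to the 5' ends of a break when the enzyme stalls, which leaves ends that can be ligated. Cells close double-strand breaks mainly by end joining, which works throughout the cell cycle and is the main route in postmitotic neurons, or by homologous recombination, which copies the sister chromatid and so works in S and G2 phase. In the embryonic brain, dividing progenitors that can use both routes lie beside newly formed neurons that have left the cycle. Many recombination, Fanconi and checkpoint genes are E2F targets and are transcribed most in S and G2 phase.

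Values are log2 intensities centred on each row's median over the 6 arrays, so they show differences between arrays and carry no level of the gene. The tissue label could therefore not be checked against brain markers, and no gene is ranked by abundance. Array medians over gene rows lay between -0.0097 and 0.012. Precision is limited by having 3 arrays for each genotype. Tdp2 itself stood at 0.90, 1.10 and 1.34 in wild-type replicates 1 to 3 and at -1.05, -0.90 and -0.94 in the mutants. It fell by 2.07 ± 0.10 (SE), and its row may hold probes outside the deleted exons. In whole-brain RNA, more cells of a type and more RNA per cell cannot be told apart.

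Of the 49 genes, 7 rose in the mutant brains, none fell and 42 did not pass the test (limma, Benjamini-Hochberg adjusted p under 0.05 over 23410 gene rows). The 7 were the checkpoint kinase genes Chek1 and Chek2, the ATR activator gene Topbp1, the recombination genes Exo1 and Rad54l, and the Fanconi genes Fancd2 and Fanca. Their rises lay between 0.28 and 0.53 on the log2 scale, or 1.21-fold to 1.44-fold, so 0 reached the 1.5-fold limit that the series text sets. Over all gene rows 6.47% were called, 2.34% higher and 4.13% lower, and 0.188% were called higher at 1.5-fold. The count of 0 lower genes compares with 1 at an unadjusted p under 0.05, Paxx, and the higher count was 23 at that limit. The share of all gene rows at that unadjusted limit was not counted. Unadjusted counts here and below therefore have no background beside them. A plain equal-variance test with the same adjustment called 0 of the 49, and it called 0 of all 23410 rows.

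Most of the uncalled genes also had higher values in the mutants. Of the 49, 47 had positive differences, with a median of 0.14 against 0.01 over all gene rows, of which 56.8% were positive. The 2 negative values were both in end joining. In 23 of the 49 (46.9%) the genotypes did not overlap, 22 with the mutants higher and 1 with them lower, while 25.7% of all gene rows showed no overlap in either direction. A further 8 genes had an adjusted p from 0.05 to 0.1, namely Rad51ap1, Usp1, Brca1, Xrcc5, Blm, Bard1, H2afx and Parp1. The members were named with earlier results of these data known, so these counts describe the list and are no test of it.

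**Figure D1:**
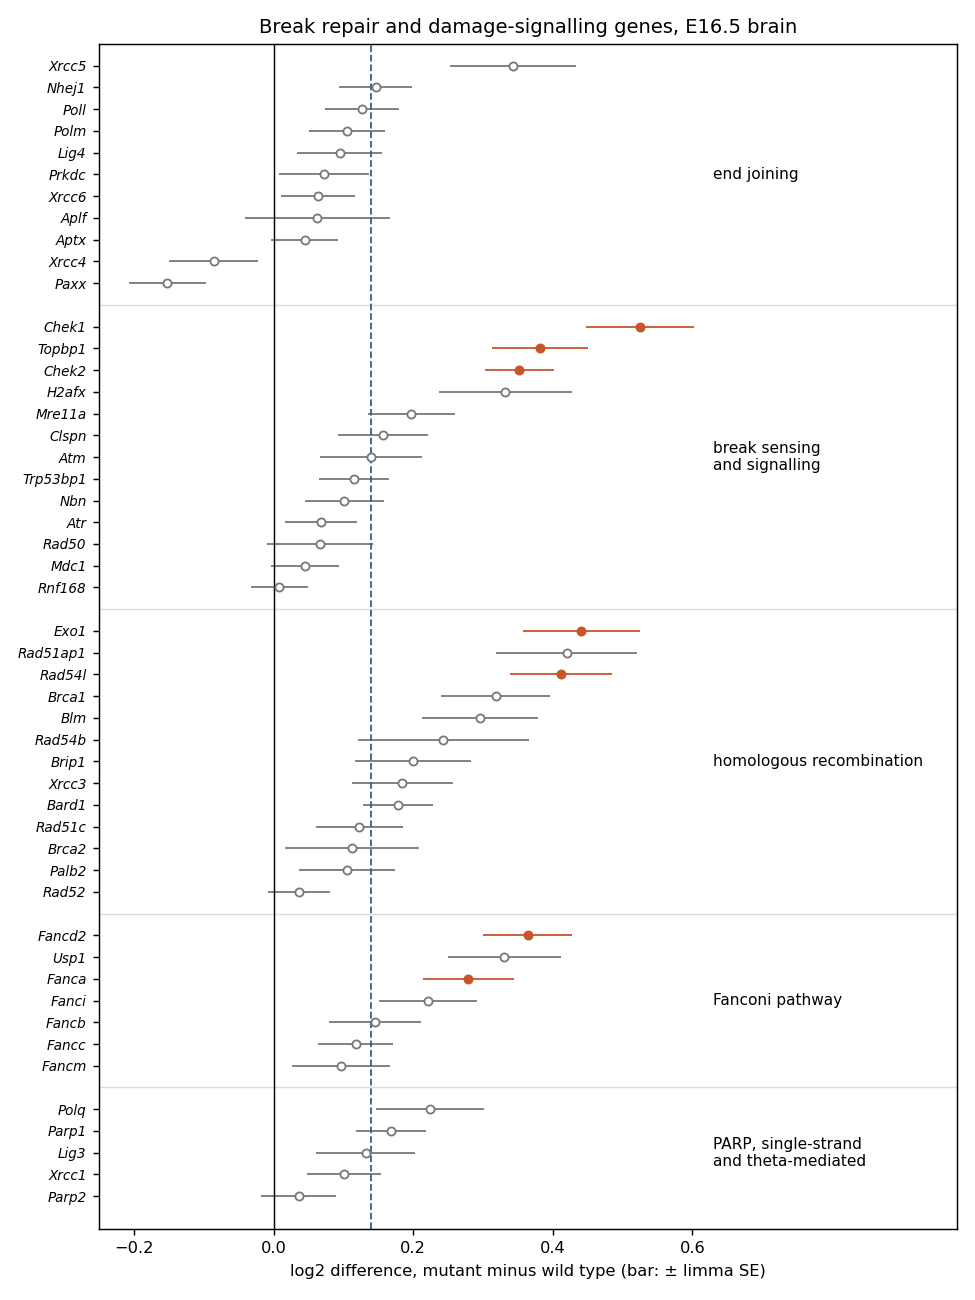
Difference between genotypes for each of the 49 measured genes, grouped by role. The horizontal axis is the log2 difference, mutant minus wild type, bars are limma's standard error, filled points passed an adjusted p of 0.05, and the dashed line is the median of the 49, 0.14. All 7 filled points lie to the right of 0, in the signalling, recombination and Fanconi groups, and the 2 points left of 0 are Xrcc4 and Paxx.

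The checkpoint and signalling genes held the largest rise. Chek1, the effector kinase that ATR activates at stalled forks and resected breaks, stood at -0.43, -0.33 and -0.14 in wild-type replicates 1 to 3 and at 0.24, 0.28 and 0.14 in the mutants. Every mutant array was above every wild-type array, and replicate 3 was the array nearest the other genotype on both sides. Chek1 rose by 0.53 ± 0.08 (SE, 3 arrays per genotype) or 1.44-fold (limma adjusted p = 0.011). Topbp1, which activates ATR, stood at -0.36, -0.12 and -0.16 in the wild types and at 0.12, 0.20 and 0.20 in the mutants. Wild-type replicate 1 was the lowest array and the 3 mutants lay close together, and Topbp1 rose by 0.38 ± 0.07 (limma adjusted p = 0.020). Chek2, the effector kinase of the ATM branch, stood at -0.22, -0.13 and -0.15 in the wild types and at 0.19, 0.13 and 0.25 in the mutants. Its spread within a genotype was small, with SDs of 0.05 in the wild types and 0.06 in the mutants, and it rose by 0.35 ± 0.05 (limma adjusted p = 0.010).

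The other 10 signalling genes were all positive, as were 56.8% of all gene rows, and did not pass. H2afx encodes the histone variant that is phosphorylated around breaks. Its values of -0.30, -0.06 and -0.03 in the wild types and of 0.33, 0.25 and 0.03 in the mutants did not overlap, with a difference of 0.33 ± 0.10 (limma adjusted p = 0.083). Among the subunits of the MRN complex, which tethers and trims break ends, Mre11a differed by 0.20 ± 0.06 (adjusted p = 0.11), Nbn by 0.10 and Rad50 by 0.07. Nbn had another row, at 0.05, which did not pass either. Neither apical kinase gene passed, with Atm at 0.14 ± 0.07 (limma adjusted p = 0.33) and Atr at 0.07 ± 0.05 (adjusted p = 0.51). Clspn, the adaptor through which ATR reaches CHEK1, differed by 0.16 ± 0.06 (adjusted p = 0.21). Of the chromatin factors that act on ubiquitin and phosphorylated H2AX, Trp53bp1 differed by 0.12. The adaptor gene Mdc1 at 0.05 and the ubiquitin ligase gene Rnf168 at 0.01 had the 2 smallest differences of the 13 signalling genes.

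In homologous recombination 2 of 13 genes rose and the other 11 had positive differences that did not pass, with a median of 0.20. Over all gene rows 2.34% were called higher and 56.8% were positive. Exo1, the exonuclease of long-range end resection, stood at -0.33, -0.08 and -0.29 in the wild types and at 0.08, 0.30 and 0.25 in the mutants. Wild-type replicate 2 and mutant replicate 1 were the nearest arrays of the 2 genotypes, and Exo1 rose by 0.44 ± 0.08 (limma adjusted p = 0.023). Rad54l, the motor protein that drives strand invasion, stood at -0.13, -0.21 and -0.15 in the wild types and at 0.13, 0.41 and 0.22 in the mutants. The wild types lay close together and the mutants were spread, and Rad54l rose by 0.41 ± 0.07 (limma adjusted p = 0.019).

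Of the recombination genes that did not pass, Rad51ap1, Brca1, Bard1 and Blm separated the genotypes, and in the others the arrays overlapped. Rad51ap1, a recombination cofactor gene, stood at -0.09, -0.11 and -0.08 in the wild types and at 0.08, 0.35 and 0.54 in the mutants, a difference of 0.42 ± 0.10 (limma adjusted p = 0.051). The SD was 0.23 in the mutants and 0.01 in the wild types. Brca1, which promotes resection, stood at -0.16, -0.07 and -0.05 in the wild types and at 0.05, 0.33 and 0.30 in the mutants, a difference of 0.32 ± 0.08 (limma adjusted p = 0.053). Mutant replicate 1 again lay nearest the wild types. Its partner Bard1 differed by 0.18 ± 0.05 (adjusted p = 0.081), with 2 other rows at 0.16 and 0.19, and the helicase gene Blm by 0.30 ± 0.08 (adjusted p = 0.080). Brip1, a helicase gene whose product binds BRCA1, differed by 0.20, Rad54b by 0.24 and the recombination genes Xrcc3 and Rad51c by 0.18 and 0.12. In Brip1 and Rad54b mutant replicate 1, at -0.01 and -0.10, lay within the wild-type range. Palb2 and Brca2, whose products act together at the break, differed by 0.11 each, and Rad52 by 0.04.

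The Fanconi pathway, which unhooks crosslinks and protects stalled forks, had 2 rises among 7 genes and a median of 0.22. The share of all gene rows called higher was 2.34%. Fancd2, one of the pair of proteins whose ubiquitination switches the pathway on, stood at -0.16, -0.14 and -0.10 in the wild types and at 0.10, 0.25 and 0.34 in the mutants. The groups did not overlap, the wild types spanned little, and Fancd2 rose by 0.36 ± 0.06 (limma adjusted p = 0.019). Its partner Fanci differed by 0.22 ± 0.07 (limma adjusted p = 0.11), also without overlap. Fanca, a core-complex subunit gene, stood at -0.08, -0.07 and -0.22 in the wild types and at 0.07, 0.27 and 0.13 in the mutants. It rose by 0.28 ± 0.06 (limma adjusted p = 0.045), the smallest of the 7 rises and the closest to the limit. Usp1, the gene of the enzyme that removes the ubiquitin from FANCD2, differed by 0.33 ± 0.08 (adjusted p = 0.052). The remaining values were 0.15 for Fancb, 0.12 for Fancc and 0.10 for Fancm.

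In end joining 0 of 11 genes passed by limma, 4 were under an unadjusted p of 0.05 (3 higher and 1 lower), and the plain test called 0. The median was 0.07. Xrcc5, the larger Ku subunit gene, stood at -0.31, -0.09 and -0.04 in the wild types and at 0.04, 0.25 and 0.30 in the mutants, a difference of 0.34 ± 0.09 (limma adjusted p = 0.064). Xrcc5 did pass with the replicate number as a block (limma adjusted p = 0.00615) and without mutant replicate 1 (0.0241). The other Ku subunit gene, Xrcc6, differed by 0.06 ± 0.05 (adjusted p = 0.57), with overlapping arrays. Prkdc, the catalytic kinase subunit that Ku recruits, differed by 0.07 ± 0.06 (adjusted p = 0.60). It stood at -0.14, 0.06 and -0.05 in the wild types and at -0.05, 0.10 and 0.05 in the mutants.

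Genes of the ligation complex had differences of both signs, none of which passed. Lig4, the end-joining ligase gene, differed by 0.09 ± 0.06, its scaffold partner Xrcc4 by -0.09 ± 0.06 and the filament protein gene Nhej1 by 0.15 ± 0.05 (limma adjusted p = 0.15), and Lig4 and Xrcc4 overlapped between genotypes. Paxx, a paralogue of XRCC4 that binds Ku, had the lowest difference of the 49. It stood at 0.09, 0.02 and 0.09 in the wild types and at -0.02, -0.05 and -0.19 in the mutants, without overlap, a difference of -0.15 ± 0.06 (limma adjusted p = 0.16). The gap-filling polymerase genes Poll and Polm differed by 0.13 and 0.10, and Aptx and Aplf, whose products bind the XRCC4 complex, by 0.04 and 0.06.

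Among the poly(ADP-ribose) polymerase, single-strand break and theta-mediated joining genes, 0 of 5 passed by limma, 2 were under an unadjusted p of 0.05 and the plain test called 0. Parp1, the main break-sensing polymerase gene, stood at -0.04, -0.07 and -0.03 in the wild types and at 0.03, 0.17 and 0.16 in the mutants, a difference of 0.17 ± 0.05 (limma adjusted p = 0.094). Polq, the polymerase of microhomology joining, differed by 0.22 ± 0.08 (adjusted p = 0.14), also without overlap. Lig3 and its scaffold Xrcc1 differed by 0.13 and 0.10, and Parp2 by 0.04. The 2 larger differences were thus those whose arrays separated.

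**Figure D2:**
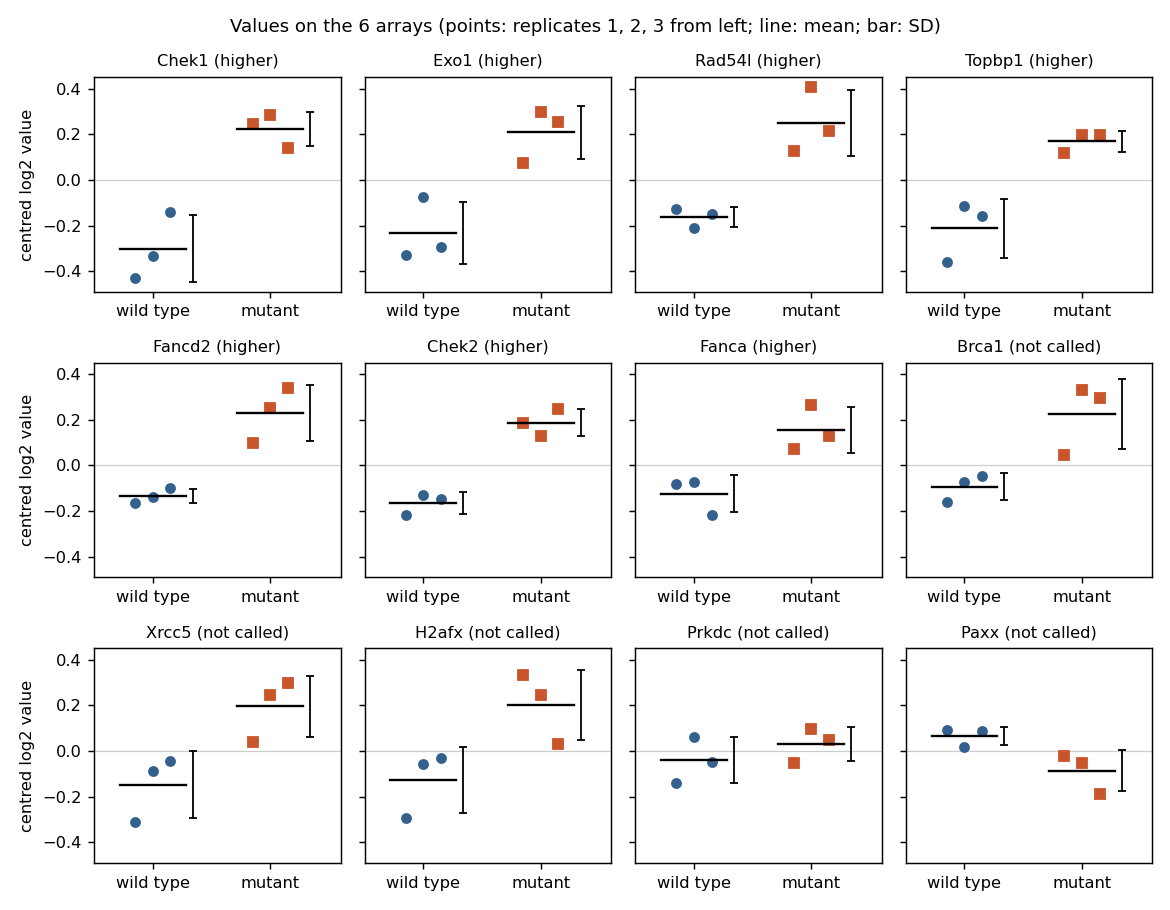
Centred log2 values on each array for the 7 genes that rose and for Brca1, Xrcc5, H2afx, Prkdc and Paxx, which did not pass. Each point is an array, horizontal lines are genotype means and bars are SDs of 3 arrays. Mutant arrays lie above all wild-type arrays in each panel except Prkdc, where they overlap, and Paxx, where they lie below.

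The calls depended on single arrays. Leaving out mutant replicate 1 gave 19 higher genes, leaving out mutant replicate 2 gave 1 and leaving out mutant replicate 3 gave 2. The 12 added without mutant replicate 1 were Xrcc5, Mre11a, Clspn, Brca1, Brip1, Blm, Rad51ap1, Rad54b, Fanci, Usp1, Parp1 and Polq. With wild-type replicate 1, 2 or 3 left out the counts were 4, 3 and 6. Chek2 passed in all 6 of these fits, with limma adjusted p from 0.013 to 0.049. Chek1 missed the limit without mutant replicate 2 (limma adjusted p = 0.067) or wild-type replicate 2 (0.057), and Topbp1 without mutant replicate 2 (0.099) or 3 (0.069). Rad54l missed it without mutant replicate 2 (limma adjusted p = 0.059), mutant replicate 3 (0.053) or wild-type replicate 2 (0.086). Fancd2 missed it without mutant replicate 2 (limma adjusted p = 0.096), mutant replicate 3 (0.053), wild-type replicate 1 (0.056) or wild-type replicate 2 (0.081). Exo1 missed it without mutant replicate 2 (limma adjusted p = 0.11), mutant replicate 3 (0.081), wild-type replicate 1 (0.066) or wild-type replicate 3 (0.062). Fanca passed only without mutant replicate 1 (limma adjusted p = 0.028), and otherwise lay between 0.081 and 0.16. The differences themselves moved less, from 0.46 to 0.61 for Chek1, 0.32 to 0.38 for Chek2 and 0.22 to 0.32 for Fanca. All-gene counts moved with the same arrays, from 145 called rows without mutant replicate 2 to 2501 without mutant replicate 1.

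Genes of dividing cells rose in the same mutant brains. Of 29 cycling-cell genes measured, 28 rose, with a median of 0.57, and of 35 DNA replication genes 20 rose and 15 positive values did not pass, with a median of 0.31. Mki67, the Ki-67 antigen gene, rose by 0.56 ± 0.07, Top2a, the topoisomerase of dividing cells, by 0.72 ± 0.10, the replicative helicase subunit gene Mcm2 by 0.48 ± 0.07 and the sliding clamp gene Pcna by 0.37 ± 0.07. Top2a and Pcna each had 2 rows naming that gene alone, and the values given come from 1 of them. In all 29 and all 35 genes the mutant arrays were above the wild types, while 25.7% of all gene rows showed no overlap in either direction. The shares of all gene rows called were 2.34% higher and 4.13% lower. Of 30 genes of mature neurons and synapses, 18 fell, with a median of -0.39, and Thy1, a neuronal surface antigen gene, fell by 0.91 ± 0.14. Without mutant replicate 2 the 28 cycling-cell calls became 3 and the 20 replication calls became 0, although their medians were 0.54 and 0.28. Without wild-type replicate 2 the replication calls became 6, and without mutant replicate 3 they became 10. The 18 neuronal falls became 8 or 6 without wild-type replicate 1 or 2, and 3 or 9 without mutant replicate 2 or 3. Single genes also missed the limit, Pcna without mutant replicate 2 or 3 or wild-type replicate 2, Thy1 without either replicate 2, and Mki67, Top2a and Mcm2 without mutant replicate 2.

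Averaged over the 49 genes, the arrays stood at -0.12, -0.04 and -0.05 in wild-type replicates 1 to 3 and at 0.02, 0.16 and 0.13 in the mutants. Wild-type replicate 1 was the lowest array and mutant replicate 1 the lowest mutant. The cycling-cell genes averaged -0.42, -0.22 and -0.19 in wild-type arrays and 0.18, 0.32 and 0.37 in mutant arrays, with the same arrays lowest within each genotype. The DNA replication genes averaged -0.27, -0.12 and -0.11, then 0.11, 0.20 and 0.17. The part of dividing cells in the rise of the repair genes was not tested.

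**Figure D3:**
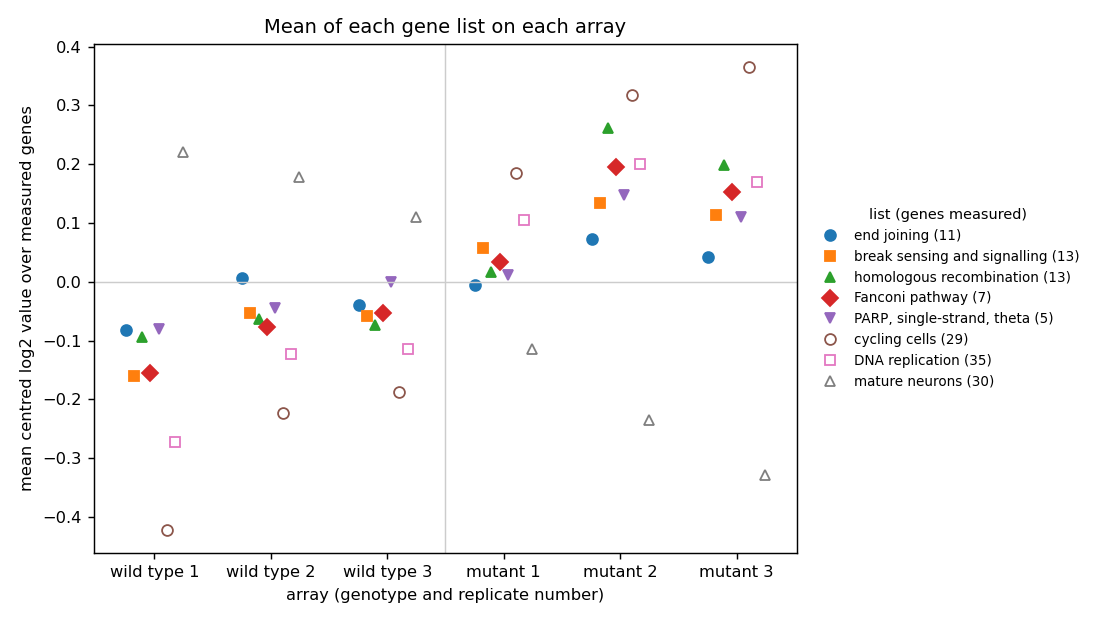
Mean centred log2 value of each gene list on each of the 6 arrays, with the number of measured genes in brackets. Filled points are the 5 roles of the repair genes, and open points are cycling-cell, DNA replication and mature-neuron genes. Wild-type replicate 1 is lowest in all 5 roles, and mutant replicate 1 is the mutant closest to 0 in cycling-cell genes, at 0.18.

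Of the 49 genes, 21 are described in general knowledge as transcripts of S or G2 phase, among them Chek1, Exo1, Brca1, Fancd2 and Rad54l. In that group 6 rose and 15 positive values did not pass, with a median of 0.24. The other 28 genes, which included Atm, Prkdc and Xrcc6, held 1 rise, Chek2, and a median of 0.10, with 26 positive and 2 negative values. Over all gene rows 2.34% were called higher. These counts depended on single arrays. Without mutant replicate 2 only Chek2 of the 49 passed by limma, and without mutant replicate 3 only Chek1 and Chek2. The genotypes did not overlap in 13 of the 21 and in 10 of the 28, beside 25.7% of all gene rows. The difference between the 2 groups was not tested, and the grouping was made with earlier results known. Chek2, Xrcc5 and H2afx had the largest differences of the 28, at 0.35, 0.34 and 0.33.

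**Figure D4:**
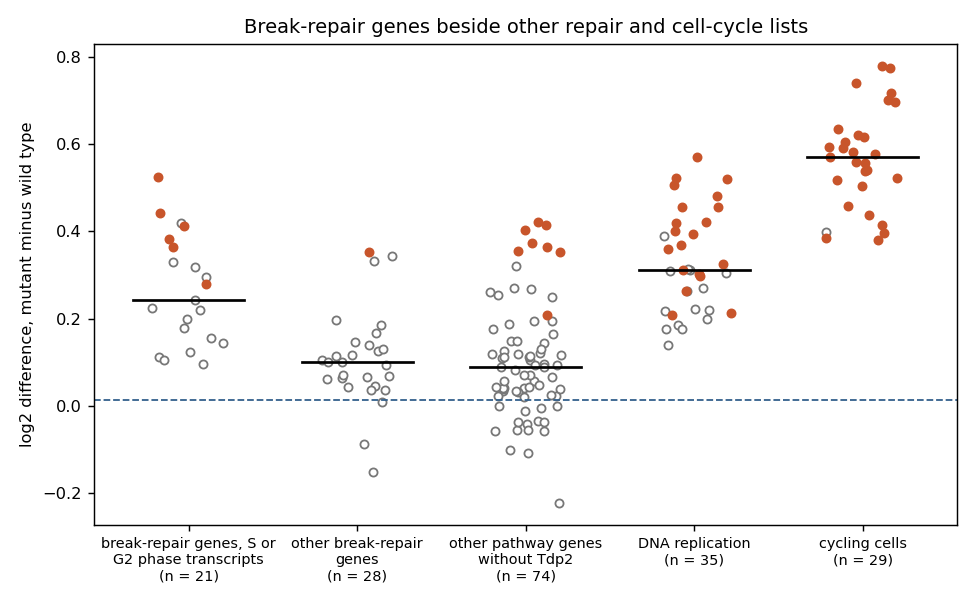
Log2 difference, mutant minus wild type, for the repair genes described as S or G2 phase transcripts, the other repair genes, other genes of the same pathways, and DNA replication and cycling-cell genes. Each point is a gene, filled where called, black lines are medians and the dashed line is the median of all gene rows, 0.01. Medians were 0.24, 0.10, 0.09, 0.31 and 0.57 from left to right.

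Among other genes of these pathways, those called higher again lay below 1.5-fold. Of 84 further genes listed by role, 75 were measured, 8 rose and Tdp2 fell (over all gene rows 2.34% were called higher and 4.13% lower), with a median of 0.09 with or without Tdp2. The rises were in recombination and signalling. Those in recombination were the resolvase genes Eme1 (0.37 ± 0.05, limma adjusted p = 0.011) and Gen1 (0.42 ± 0.10), the resection nuclease gene Dna2 (0.35 ± 0.07), the single-strand binding subunit gene Rpa2 (0.40 ± 0.07), Fignl1 (0.35 ± 0.08) and Mms22l (0.41 ± 0.10). Those in signalling were the cell-cycle kinase gene Wee1 (0.36 ± 0.07) and the phosphatase gene Cdc25a (0.21 ± 0.05), which act in opposite directions on the cyclin-dependent kinases. These were 6 of 30 recombination genes and 2 of 23 signalling genes. Leaving out mutant replicate 1 raised the 8 to 13, while leaving out replicate 2 or 3 of the mutants lowered it to 0 or 1. They became 4, 1 and 5 without wild-type replicate 1, 2 or 3, and 4 when all array rows were tested. Of 14 further Fanconi genes limma called 0, with 3 under an unadjusted p of 0.05 and 0 by the plain test. Of 8 further end-joining genes only Tdp2 passed, and Tdp1, which removes topoisomerase I peptide, differed by 0.12 ± 0.06 (limma adjusted p = 0.28). Rbbp8 and Rnf8 were not analysed here.

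RefSeq promoter windows (GRCm38.p6, 250 bases before to 50 after the start site) were held for 40 of the 49 genes, 5 of them called. The windows were searched on both strands for the E2F sites TTTCCCGC, TTTGGCGC and TTCCCGCC, the first and last of which can overlap. A match stood in 12 of the 40 windows (30.0%), against 4.65% of 15012 protein-coding genes on the array with a window and 3.31% of all 27025 genes in the table. Among the called genes 2 of 5 held one and among the uncalled 10 of 35, and by phase 7 of 17 S or G2 transcripts and 5 of 23 others. Letters TTTGAA and TTCGAA of the cell-cycle homology region stood in 3 of 40 (7.5%, against 16.8% of the protein-coding genes), and CCAAT in 22 of 40 (55.0%, against 38.2%). A match is a run of letters and no evidence of binding.

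The windows of the 2 kinase genes that rose and hold an E2F match are shown beside that of Rad54l, which rose and holds none, 5' to 3' on the gene's strand with the match in capitals. Chek1 lies on the minus strand at chr9:36726609-36726908, Chek2 on the plus strand at chr5:110839733-110840032 and Rad54l on the minus strand at chr4:116123641-116123940. The match of Chek1 begins 43 bases after the start and that of Chek2 at -152, both on the opposite strand.
Chek1: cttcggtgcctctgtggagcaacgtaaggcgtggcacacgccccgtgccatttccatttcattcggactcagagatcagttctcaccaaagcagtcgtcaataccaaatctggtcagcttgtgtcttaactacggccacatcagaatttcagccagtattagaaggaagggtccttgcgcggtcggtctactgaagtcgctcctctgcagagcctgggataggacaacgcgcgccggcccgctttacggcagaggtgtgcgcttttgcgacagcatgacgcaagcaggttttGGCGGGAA
Chek2: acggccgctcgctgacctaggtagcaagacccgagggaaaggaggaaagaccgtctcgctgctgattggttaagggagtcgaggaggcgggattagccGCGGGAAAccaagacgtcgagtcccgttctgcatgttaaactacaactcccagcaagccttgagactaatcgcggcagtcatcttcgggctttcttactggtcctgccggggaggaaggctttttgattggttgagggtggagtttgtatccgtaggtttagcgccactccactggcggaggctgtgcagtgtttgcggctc
Rad54l: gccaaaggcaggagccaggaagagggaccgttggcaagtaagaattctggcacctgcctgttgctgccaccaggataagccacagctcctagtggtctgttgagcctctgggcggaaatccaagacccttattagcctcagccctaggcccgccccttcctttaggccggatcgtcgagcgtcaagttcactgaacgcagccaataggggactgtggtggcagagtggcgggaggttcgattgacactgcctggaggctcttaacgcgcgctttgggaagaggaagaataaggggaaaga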

How the data were processed

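Total RNA from 6 whole brains was labelled and hybridised to Affymetrix Mouse Gene 1.0 ST arrays, per the labels' protocols. The deposited log2 values were normalised by the authors with RMA (series text). Affymetrix Expression Console is the software named, per the submitters' processing notes. The table gives no log base, and log2 is taken from RMA. Each row was found centred on its median over the arrays (to within 5e-07), a step no source describes, so no filter on low values could be applied. No source used here gives the probe summary level or genome build. Of 28856 rows, 23410 named at least 1 gene in the platform annotation and were tested, 21789 of them naming 1. Members were matched by current or older symbol through a RefSeq table of GRCm38.p6. A gene with several rows took the row with most accessions, which applied among the members to Nbn and Bard1. Among the other genes named it applied to Tdp1, Top2a and Pcna, whose other rows are not given here. Genotypes, taken from the titles, were compared with limma 3.58.1 (R 4.3.3, lmFit and eBayes, two-sided, moderated SEs) with Benjamini-Hochberg adjustment over all tested rows. The fit was tested on simulated arrays whose rows varied independently. They held no shift shared by the genes of an array, so the test cannot show how calls depend on single arrays. Where nothing says that brains came from separate litters, p-values measure the spread between these samples. The named genes were all members, the called genes of the other pathway lists (at most 8 in each direction), and Rbbp8, Rnf8, Tdp2, Mki67, Top2a, Mcm2, Pcna, Thy1 and Mdm2 or Cdkn1a. A further named item is not reported here. The members and lists were chosen with earlier results of these data known. Alternatives tried were a replicate block, leave-one-out fits, all table rows, equal array medians, cyclic loess, array weights, a robust variance prior, a plain equal-variance test, a 1.5-fold limit, an unadjusted p and the mean of a gene's rows. Figures were drawn with matplotlib 3.10.9.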

Additional observations from a re-analysis of the deposited data

How the results depend on the processing

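No member called higher changed direction under any alternative run, and no member was called lower except Paxx at an unadjusted p. The count of 7 higher members was 13 with the replicate block, 23 with array weights, 23 at an unadjusted p (with 1 lower), 0 at 1.5-fold and 0 with the plain equal-variance test. It ranged from 1 to 19 with each array left out, and was 6 with all rows (Fanca lost, limma adjusted p = 0.062), 7 with equal array medians or a robust prior, and 9 with cyclic loess or the mean of a gene's rows. The cause of these differences was not tested, beyond that leaving out an array leaves fewer samples. The median over members lay between 0.13 and 0.19. Same-numbered arrays deviated together with correlations of 0.21, 0.05 and 0.20. Replicates 1 and 3 correlated best with their own number and replicate 2 did not, which cannot exclude that the numbers mark pairs. The labels do not say that a number marks a pair, so the paired fit is an alternative. The 6 members it added, all higher, were Xrcc5, Brca1, Usp1, Rad51ap1, Blm and Fanci. Their limma adjusted p lay between 0.00615 and 0.0445 with the block, and they did not pass without it when all arrays were kept equal in weight. Aplf, Rad50 and Rnf168, uncalled, crossed 0 in some fits.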

Other observations

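Transcripts that p53 induces after DNA damage moved in both directions. Of 18 measured, Btg2, Gtse1 and Trp53inp1 rose by 0.51 ± 0.07, 0.40 ± 0.04 and 0.40 ± 0.05, and Perp, a desmosome gene, fell by 0.35 ± 0.05, while 14 did not pass (limma, median 0.01 over the list). The called share was 22.2%, against 6.47% of all gene rows (2.34% higher and 4.13% lower). Without mutant replicate 2 only Gtse1 of the 3 rose, and the median was -0.0086 without mutant replicate 1 and -0.0060 without wild-type replicate 3. Btg2 is also expressed in neurogenic progenitors and Gtse1 in G2 phase. Mdm2, the feedback inhibitor gene of p53, had a difference of 0.12 ± 0.04 (limma adjusted p = 0.17), with mutant arrays at 0.06, 0.02 and 0.05 and wild types at -0.02, -0.12 and -0.08. The apoptosis genes Bbc3 and Pmaip1 differed by 0.09 and -0.02 and did not pass. Cdkn1a was not analysed here.

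Of 14 microglia and macrophage genes limma called 0, with 3 under an unadjusted p of 0.05 and 0 by the plain test, and a median of -0.0049. Of 10 red-cell genes 2 rose, beside 2.34% of all gene rows called higher, and the median was 0.06. The 2 were the embryonic globin genes Hbb-y and Hba-x, named after their values were seen. Hbb-y rose by 3.79 ± 0.10 (13.8-fold, limma adjusted p = 5.4e-06), from -2.18, -1.77 and -1.96 in the wild types to 1.78, 1.77 and 1.91 in the mutants. Hba-x rose by 1.44 ± 0.07 (2.72-fold, adjusted p = 0.00035), and both differences were larger than that of any repair gene called higher. The other 8 red-cell genes, Gata1, Klf1 and Alas2 among them, had differences from -0.14 to 0.135 and did not pass. A further embryonic globin gene, Hbb-bh1, was also among these 8, at 0.135 ± 0.045 (limma adjusted p = 0.13). The part of red cells in the repair results was not tested.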
